A study of Mus musculus with 4 samples.

Results

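The tail bud and presomitic mesoderm genes examined here are *T* (Brachyury), *Nkx1-2*, *Cdx1*, *Cdx2*, *Cdx4*, *Evx1*, *Sp5*, *Greb1*, *Tbx6* and *Msgn1*. They are 10 of the 24729 genes on the arrays and were taken by the gene name given for each probe, which gave 14 probes. At the posterior end of the embryo, axial progenitors in the tail bud keep adding cells to the neural tube and to the presomitic mesoderm, from which somites form. Wnt and FGF signals hold these progenitors, T and the Cdx factors act with them, and Tbx6 and Msgn1 turn the cells to a mesodermal fate. The supply of progenitors is used up as the axis reaches its full length.

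RNA of whole C57BL/6 embryos was measured at an earlier and a later embryonic day, E8.5 and E10.5, in wild type (WT) embryos and in embryos labelled as knockout of the kinase gene *Dyrk2*, with 1 array for each of the 4 groups and all arrays on 1 slide. The *Dyrk2*-/- mice carried small deletions made with a CRISPR/Cas9 nickase, and the labels do not say which deletion the embryos had or how many embryos went into each RNA. With 1 array per group, a difference between 2 arrays has no p-value, and precision is limited by the number of arrays. The comparison of genotypes asks whether loss of *Dyrk2* goes with altered expression of developmental genes early in organ formation, and that of stages follows the same genes as the trunk gives way to the tail.

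The arrays were 1-colour Agilent arrays, on which the Cy3 brightness of each short DNA probe measures its transcript. Values are log2 of the processed intensity minus the 75th percentile of the array, so that a value of 0 is a probe brighter than 75% of all probes. On the WT and knockout-labelled arrays, 31370 and 30226 of 56604 probes were well above background at E8.5, then 31818 and 31943 at E10.5. Probes printed several times gave a median SD between spots that puts the spread of a log2 ratio at 0.15 between the E8.5 arrays and at 0.11 between the E10.5 arrays, which covers spots and not embryos. A gene is represented by its brightest probe, the one with the highest mean over the arrays, and counts as called when its arrays differed by 1.5-fold or above.

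The targeted gene was read first. On the WT and knockout-labelled arrays, the brightest *Dyrk2* probe had values of 0.06 and 0.76 at E8.5, then −0.31 and 0.34 at E10.5. At this probe the transcript was not lower on the arrays labelled as knockout under any scaling tried, and since a small deletion need not remove a transcript, it does not check the labels. The other *Dyrk2* probe, well above background on every array, had log2 ratios of 0.03 at E8.5 and 0.28 at E10.5. Its E8.5 ratio was negative with scaling by spike-in control probes and without scaling, which shift every E8.5 ratio by −0.55 and −0.26. Every direction between genotypes below rests on the submitters' labels.

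Genes that mark sex separated the arrays of the later stage. *Xist*, the RNA that coats the inactive X chromosome, had values of −7.11, −6.85 and −7.01 on the WT E8.5, knockout-labelled E8.5 and WT E10.5 arrays, none well above background, and −0.37 on the knockout-labelled E10.5 array. On that array alone, the brightest probes of the Y-linked genes *Uty*, *Kdm5d*, *Eif2s3y* and *Ddx3y* were not well above background. Sex and genotype cannot be told apart at E10.5.

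Markers of red blood cells differed as well. All 9 of 9 listed erythroid genes were 1.5-fold or more higher on the knockout-labelled array at E8.5, and 6 of 9 at E10.5. Their summed signal, in multiples of the 75th percentile, was 15.5 on the WT and 325 on the knockout-labelled array at E8.5, then 1100.0 and 1298 at E10.5, with the probe of *Hbb-bh1* the brightest at E8.5, and *Klf1* not well above background on the WT E8.5 array. All 9 were also called higher at E10.5 than at E8.5 on the WT arrays, beside 19.3% of all genes. The labels give no somite counts, so embryo age within a stage cannot be told apart from genotype. The part of the erythroid difference in the values below was not tested.

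The whole-embryo label was compared with tissue markers. Of 7 somite markers, 6 were well above background on every array, and the remaining one, *Myf5*, on none. All 5 neural tube markers and all 5 heart markers were well above background on every array, and between genotypes 2 neural tube genes, *Neurog2* and *Olig2*, were called higher at E8.5 and no heart gene at either stage. The 1 somite gene called between genotypes was *Meox2*, a factor of the differentiating somite, at −1.18 on the WT and −0.15 on the knockout-labelled array at E8.5, which is 2.04-fold higher. Scaling by the spike-in control probes shifts every E8.5 ratio by −0.55. With it the calls of *Neurog2*, *Olig2* and *Meox2* were lost, and the median log2 ratio of the heart genes was −0.60. Without scaling, the call of *Olig2* was lost.

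All 10 tail bud genes were well above background on both E8.5 arrays, and 7 of them on both E10.5 arrays. *T*, the T-box factor that keeps tail bud progenitors and the notochord (NM_009309, chromosome 17 of mm9, 8634870 to 8634929), had values of 1.996 on the WT array and 1.64 on the knockout-labelled one at E8.5, then −2.25 and −3.74 at E10.5. Its other probe, from a predicted transcript, stayed below background throughout. *Nkx1-2*, a homeobox gene of the caudal epiblast and its neuromesodermal progenitors, had values of 0.06 and −0.58 at E8.5, then −5.84 and −7.00 at E10.5, where it was not well above background. The gene rests on this 1 probe (chromosome 7, 139787123 to 139787182), since its other 2 probes were not well above background on any array.

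The Cdx factors, homeobox proteins that pattern the posterior axis and the gut, were also brightest at E8.5. *Cdx1* (NM_009880) had values of 4.67 and 3.54 at E8.5, then −1.53 and −0.96 at E10.5. *Cdx2* (NM_007673, chromosome 5, 148112547 to 148112606) had 4.18 and 3.70 at E8.5, then −1.65 and −2.36 at E10.5. X-linked *Cdx4* (NM_007674, 100525314 to 100525373) had 1.43 and 1.38 at E8.5, then −5.68 and −7.08 at E10.5, where neither value was well above background. Of the 2 measured at E10.5, *Cdx1* was higher and *Cdx2* lower on the knockout-labelled array.

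*Evx1*, a homeobox gene of the primitive streak and tail bud that also marks a class of spinal interneurons, lies next to the *Hoxa* cluster (NM_007966, chromosome 6, 52268298 to 52268357). Its values were 3.42 and 2.79 at E8.5, then −0.45 and −1.27 at E10.5, and were lower on the knockout-labelled array at both stages. *Sp5*, a zinc finger factor induced by Wnt signals (NM_022435, chromosome 2, 70315688 to 70315747), had 3.16 and 2.67 at E8.5, then 0.28 and −0.06 at E10.5. *Greb1*, a gene first known for its response to estrogen (NM_015764, chromosome 12, 16678455 to 16678514), had 5.39 and 5.42 at E8.5, then 4.05 and 4.18 at E10.5. A further *Greb1* probe (NM_001252071) was dim, with −3.70 and −3.87 at E8.5 and no value well above background at E10.5, and at E8.5 it leaned the other way from the brightest probe.

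*Tbx6*, the T-box factor that sets presomitic mesoderm apart from neural tissue (NM_011538, chromosome 7, 133928999 to 133929058), had 2.89 and 2.95 at E8.5, then −0.48 and −2.14 at E10.5. The genotypes thus differed by less than the spread between spots at E8.5 and by much more at E10.5. *Msgn1*, a basic helix-loop-helix factor of the presomitic mesoderm (NM_019544, chromosome 12, 11215431 to 11215490), had −2.21 and −2.40 at E8.5 and was not well above background at E10.5, with −7.04 and −7.08.

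**Figure D1:**
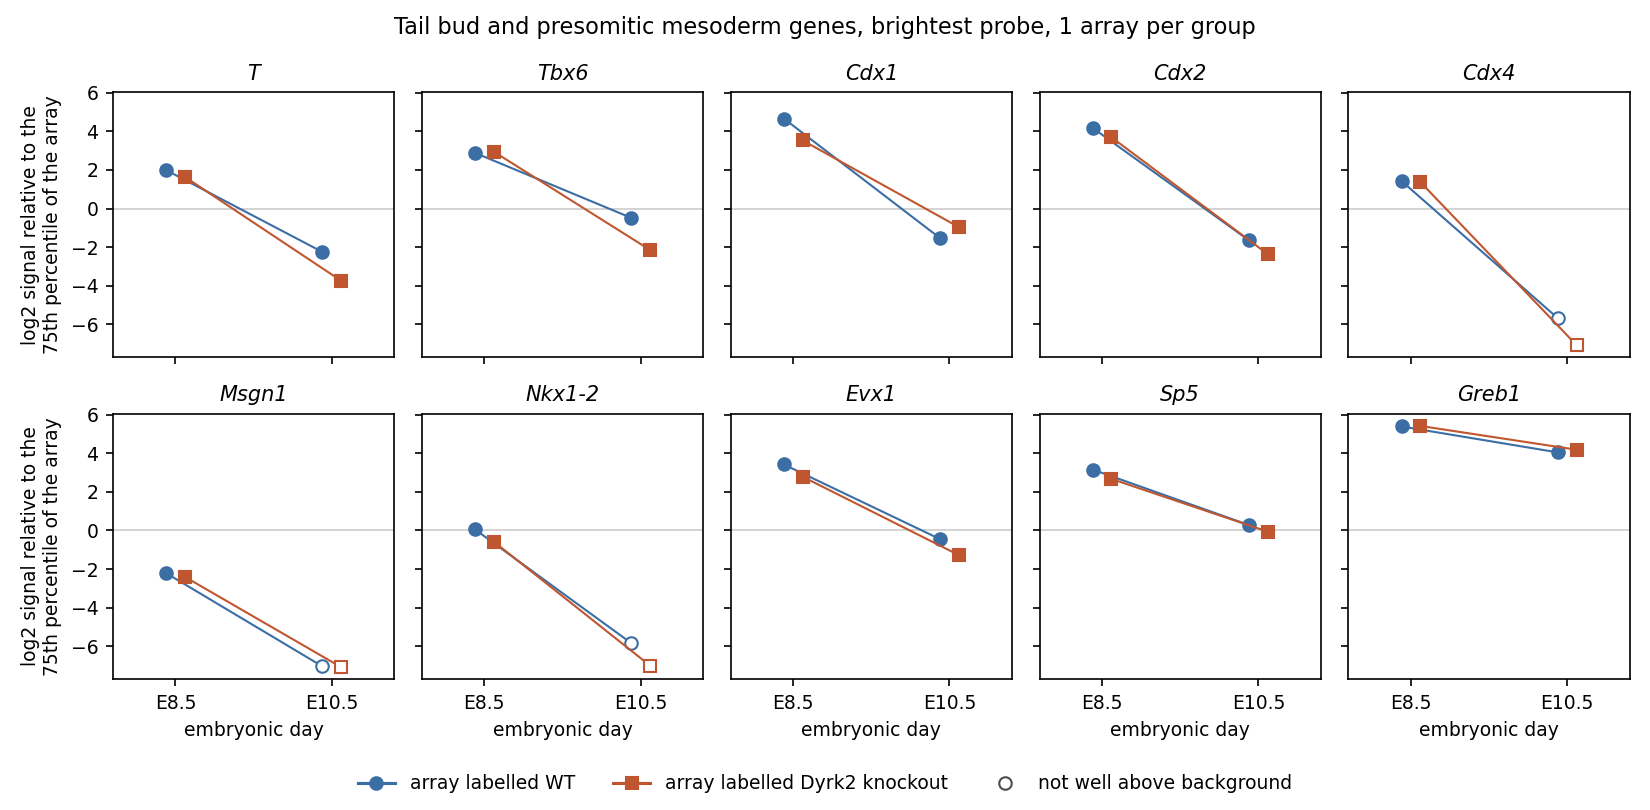
Log2 signal of each gene at its brightest probe against embryonic day, relative to the 75th percentile of the array (grey line at 0), with circles for WT arrays, squares for knockout-labelled arrays, open symbols where the probe was not well above background, and 1 array per point. Every gene was lower at E10.5 than at E8.5 in both genotypes, and *Cdx4*, *Msgn1* and *Nkx1-2* were not well above background at E10.5.

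Between the stages the 10 genes moved one way. All 10 were called lower at E10.5 than at E8.5 on the WT arrays, where 37.6% of 16455 genes were called in either direction and 18.3% lower, and all 10 on the knockout-labelled arrays, where 31.4% of 16210 genes were called and 14.3% lower. Of the 10, *Cdx4*, *Msgn1* and *Nkx1-2* entered through E8.5 alone, where the filter favours a fall. All 7 measured on both arrays were called lower, beside 16.2% of such genes in WT and 13.02% in the knockout-labelled pair. Over these 7 genes the median log2 ratio was −3.87 in WT and −4.49 in the knockout-labelled pair. Over the 10 genes it was −4.54 in WT, against −0.09 over all genes, and −4.89 in the knockout-labelled pair, against −0.07. With the 3 genes that were below background at E10.5 set at their bounds, the medians of the 10 were −4.06 and −4.34. Both medians stayed negative under every scaling tried, where no scaling shifted the median of all genes by 0.18 in WT and 0.31 in the knockout-labelled pair and the spike-in scaling shifted the latter by 0.64. Other lists were called lower at E10.5 in WT as well, with 13 of 15 Wnt and FGF effectors and targets, 7 of 11 ligands, 7 of 7 endoderm markers, 5 of 6 yolk sac markers (median −3.78) and 5 of 5 heart markers. In this bulk RNA, fewer tail bud cells in a larger embryo and less RNA per cell cannot be told apart.

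The falls differed in size. *Cdx1* was 73.4-fold and *Cdx2* 56.7-fold lower at E10.5 on the WT arrays, at ranks 4 and 5 from the lowest among 14921 genes well above background on both. *T* was 18.9-fold, *Evx1* 14.6-fold, *Tbx6* 10.3-fold and *Sp5* 7.34-fold lower, while *Greb1* was 2.54-fold lower. For genes below background at E10.5 the fold is a bound, taken against the dimmest signal that still counted as well above background on the later array, or the gene's own value where higher. By this measure *Cdx4* was at least 70.8-fold, *Nkx1-2* at least 27.4-fold and *Msgn1* at least 5.69-fold lower.

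On the knockout-labelled arrays the order was different. *Cdx2* was 66.4-fold lower at E10.5, *T* 41.7-fold and *Tbx6* 34.1-fold, at ranks 3, 5 and 7 from the lowest among 14790 genes. *Cdx1* was 22.5-fold, *Evx1* 16.7-fold, *Sp5* 6.63-fold and *Greb1* 2.35-fold lower. *Cdx4* was at least 70.9-fold, *Nkx1-2* at least 18.3-fold and *Msgn1* at least 5.16-fold lower. Set beside the WT values, the fall was larger for *T* and *Tbx6* and smaller for *Cdx1*. For *T* this nearly vanished under normexp, a background correction that adds an offset to every signal, where the genotypes differed by a log2 ratio of −0.44 at E8.5 and −0.60 at the later stage. The stage and genotype comparisons share arrays, so that these differences and those between genotypes are the same measurements.

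At E8.5, 3 of the 10 genes were called lower on the knockout-labelled array and 0 higher, where 9.66% of 15789 genes were called in either direction and 5.43% lower. *Cdx1* was 2.19-fold lower, at rank 67 from the lowest among 14997 genes well above background on both arrays. *Evx1* was 1.55-fold and *Nkx1-2* 1.55-fold lower, just past the threshold. The call of *Evx1* was lost with quantile normalization (log2 ratio −0.55) and in the deposited table (−0.55), and that of *Nkx1-2* under normexp (−0.51). *Sp5*, *Cdx2*, *T* and *Msgn1* were lower by less than the threshold, with log2 ratios of −0.48, −0.48, −0.35 and −0.19. *Cdx4*, *Tbx6* and *Greb1* differed by less than the spread between spots, with log2 ratios of −0.05, 0.06 and 0.03. All 10 genes fell between the stages, and embryo age within E8.5 cannot be told apart from genotype here.

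The median log2 ratio of the 10 genes at E8.5 was −0.42, against −0.03 over all genes. Scaling by the spike-in control probes shifted the median ratio of all genes by −0.55 at E8.5 and by 0.16 at E10.5, and leaving the arrays unscaled shifted it by −0.26 and −0.13. Against the median of all genes, that of the 10 genes stood at −0.39 under each of these 3 scalings, which shift every gene alike. The spike-in scaling called 8 of the 10 genes lower, and 48.7% of all genes with them, and no scaling called 6, and 14.1% of all genes. Under both *Tbx6* and *Greb1* took negative ratios, as did 15022 of 15789 genes under the spike-in scaling and 13375 without scaling. A 2-fold threshold left *Cdx1* alone, beside 2.07% of all genes lower.

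At E10.5, 4 of the 7 genes measured were called lower on the knockout-labelled array and 0 higher, where 6.77% of 16122 genes were called in either direction and 4.01% lower. *Tbx6* was 3.16-fold and *T* 2.81-fold lower, at ranks 3 and 7 from the lowest among 15468 genes well above background on both arrays. *Evx1* was 1.77-fold and *Cdx2* 1.64-fold lower, at ranks 138 and 223. *Sp5* was 1.26-fold lower, which is short of the threshold. *Cdx1* was 1.49-fold higher, also short of it but at rank 15218 of 15468, and *Greb1* had a log2 ratio of 0.14.

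The median log2 ratio of the 7 genes was −0.71, against −0.02 over all genes. None of the 7 ratios changed direction under the scalings tried, although the spike-in scaling called 3 genes lower and *Cdx1* higher, against 2.38% of all genes lower and 4.54% higher. In both the spike-in scaling and normexp, the call of *Cdx2* was lost, at log2 ratios of −0.55 and −0.42. Under normexp the log2 ratio of *T* was −0.60 in place of −1.49 and that of *Tbx6* −1.17 in place of −1.66.

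**Figure D2:**
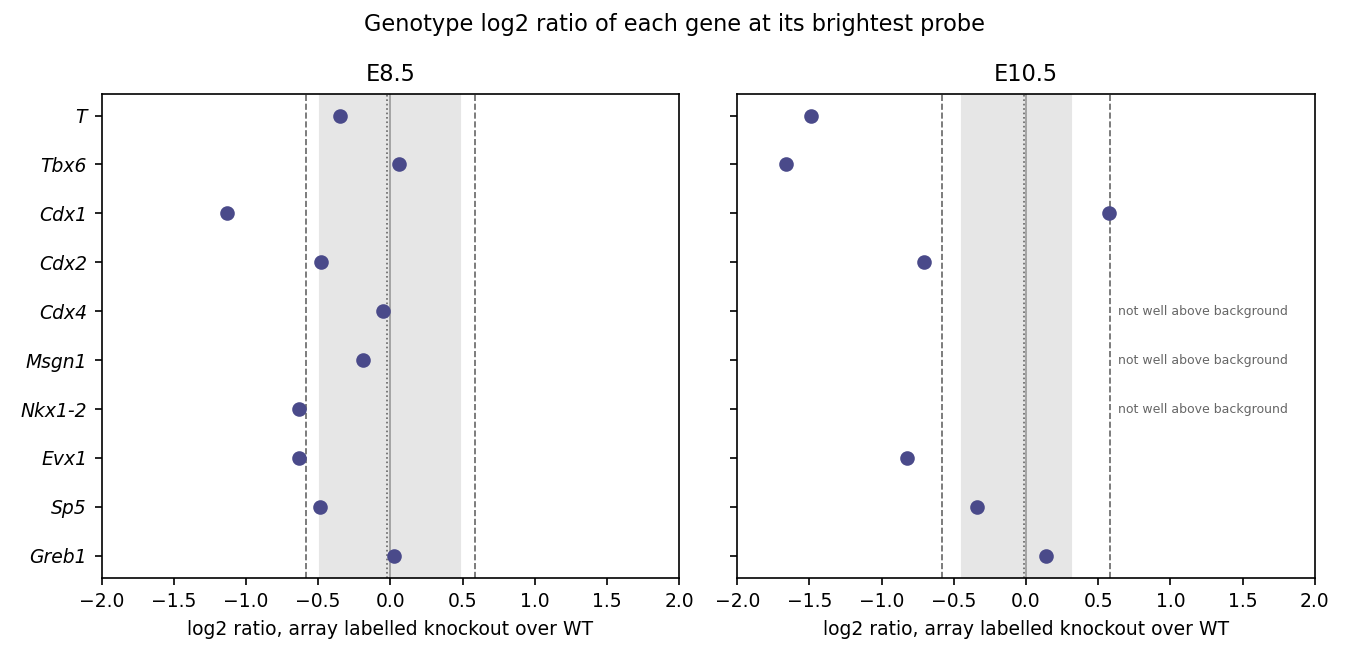
Log2 ratio of the knockout-labelled over the WT array for each gene at its brightest probe, with 1 array per group, a grey band for all genes but the highest and lowest 5% (−0.49 to 0.48 at E8.5, −0.45 to 0.31 at E10.5), a dotted line at their median and dashed lines at 1.5-fold. *Cdx1* lay at −1.13 and then 0.57, and *T* and *Tbx6* at −1.49 and −1.66 at E10.5, while *Tbx6* and *Greb1*, near 0 at E8.5, were negative there, as most genes were, with the spike-in scaling or none.

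The genotype was tested over both stages with limma, with the embryonic day as a block. None of the 10 genes passed an adjusted p of 0.05, at which limma called 6 of 32289 probes (0.0186%). An unadjusted limma p under 0.05 was reached by 7 of the 10 genes and 1592 of all probes. With spike-in scaling it was reached by 2 of the 10 genes and 338 probes. Under normexp it was reached by 5 genes and 1959 probes, and without limma's intensity trend by 5 genes and 1635 probes. *Evx1* came closest, with a log2 difference of −0.73 ± 0.13 (SE, adjusted p = 0.181), lower at both stages. *Cdx2* had −0.60 ± 0.13 (adjusted p = 0.342) and *T* −0.92 ± 0.24 (adjusted p = 0.535), each also lower at both stages. *Tbx6*, lower at E10.5 only, had −0.80 ± 0.31 (adjusted p = 0.976). For *Cdx4*, *Msgn1* and *Nkx1-2* this fit uses E10.5 signals that were not well above background. Without scaling between arrays limma called 7 of the 10 genes, all lower, among 729 of 32289 probes. That setting shifts the ratios of all genes by −0.26 at E8.5 and −0.13 at E10.5, which the fit reads as genotype. Without a filter on dim probes it called *Cdx2*, *Evx1*, *T* and *Tbx6* among 564 of 56604 probes.

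Genes of other tissues share some of these factors. *T* also marks the notochord, for which 6 of 7 listed markers were measured at E8.5 and 2 were called lower, with sums of 13.6 and 8.96. The called genes were *Foxa2* and *Foxj1*, and *Foxa1* and *Shh* were lower by less than the threshold. *Noto* and *Nog* leaned higher, with log2 ratios of 0.29 and 0.44 that the spike-in scaling turned negative. At E10.5, where *T* differed most, the sums were 6.73 and 5.53 and 0 of 5 markers measured were called. The probe of *Foxa1* was the brightest of them at E8.5, *Chrd* was well above background on no array and *Noto* on neither E10.5 array. *Foxa2*, a factor of the notochord, floor plate and endoderm, had values of 2.41 and 1.35 at E8.5, 2.08-fold lower on the knockout-labelled array, and of 1.09 and 0.77 at E10.5. The part of the notochord in the values of *T* was not tested.

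*Cdx1* and *Cdx2* are also expressed in the hindgut. Of 7 endoderm markers, 1 was called lower at each stage, at E8.5 *Hnf4a*, and their summed signal was 15.1 on the WT and 13.7 on the knockout-labelled array at E8.5, then 3.64 and 4.03 at E10.5, with the probe of *Trh* the brightest. Of 6 trophoblast markers, which bear on *Cdx2*, *Gcm1* was set aside, since the array annotation places its brightest probe on chromosome 7 and the gene table places the gene on chromosome 9. The summed signal of the remaining 5 was 5.72 and 6.11 at E8.5, where of 4 compared 1 was called lower and *Prl3d1*, as a bound, higher, and 1.56 and 1.89 at E10.5, where 1 of 2 compared was called higher. The probe of *Hand1* was the brightest, and *Tpbpa* was well above background on no array. Of 6 yolk sac endoderm markers, 5 were called lower at E8.5, with sums of 43.4 and 28.6, and 0 of 5 compared at E10.5, with sums of 20.5 and 16.9. The probe of *Afp* was the brightest at E10.5, and *Apoa4* was not well above background on either E10.5 array. The part of these tissues in the values of *Cdx1* and *Cdx2* was not tested.

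For *Evx1*, 6 of 6 markers of ventral spinal interneurons were measured at both stages. Their summed signal was 8.18 on the WT and 7.78 on the knockout-labelled array at E8.5, where 1 was called higher, and 14.5 and 11.6 at E10.5, where *Lhx1* was called lower. The probe of *Lhx5* was the brightest at E8.5 but not at E10.5, and all 6 were well above background on every array. *Lhx1*, a LIM homeobox gene of interneurons and intermediate mesoderm, had values of 1.27 and 1.26 at E8.5, then 0.91 and 0.08 at E10.5, 1.78-fold lower on the knockout-labelled array. Of 6 primitive streak markers compared at E8.5, 1 by a bound, 2 were called lower with bounds applied, with sums of 0.804 and 0.464, and 2 of 4 at E10.5, with sums of 1.22 and 0.760. *Gsc*, an organizer and craniofacial homeobox gene and the one with the brightest probe at E10.5, had −2.27 and −3.36 at E8.5, then −0.48 and −1.51 at E10.5. *Mixl1* and *Mesp1* were not well above background at E10.5, and the part of these cells in the values of *Evx1*, *T* and *Sp5* was not tested.

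The signals that hold tail bud progenitors were followed in lists of related genes. Of 11 Wnt and FGF ligands with *Gdf11*, 1 was called lower at E8.5 and 2 of 10 measured at E10.5, and none higher. *Wnt8a*, a Wnt ligand of the early streak and tail bud, had values of −0.99 and −2.92 at E8.5, 3.80-fold lower on the knockout-labelled array, and was not well above background at E10.5. *Fgf4*, an FGF ligand of the streak and presomitic mesoderm, had 0.51 and 0.07 at E8.5, then −2.62 and −3.47 at E10.5, 1.80-fold lower there. *Fgf3*, expressed in the tail bud and hindbrain, had 2.07 and 1.89 at E8.5, then −2.35 and −2.97 at E10.5, 1.53-fold lower there. The call of *Fgf3* was lost with the spike-in scaling, which shifts every E10.5 ratio by 0.16. The other 2 probes of *Fgf3* were not well above background on the knockout-labelled E10.5 array.

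*Fgf8* and *Wnt3a*, the ligands best known for holding the tail bud, were not called. The value of *Fgf8* was 2.76 and 2.63 at E8.5, then 0.91 and 0.92 at E10.5, each pair closer than the spread between spots. That of *Wnt3a* was 0.70 and 0.35 at E8.5, then −1.18 and −1.32 at E10.5, a difference that the spike-in scaling turned the other way at E10.5. With the spike-in scaling both genes were called lower at E8.5, as were 48.7% of all genes. Without scaling *Wnt3a* was called lower there, as were 14.1% of all genes. These genes were singled out after their values were seen. The ligands had a median log2 ratio of −0.07 at the earlier stage and of −0.17 at the later one. Under the spike-in scaling these medians were −0.61 and −0.01.

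Of 15 effectors, targets and feedback genes of these pathways, 2 were called lower at E8.5 and 0 at E10.5, with medians of −0.08 and −0.00, the latter positive under the spike-in scaling. The median at E8.5 was −0.63 under the spike-in scaling, which is past 1.5-fold, and −0.34 without scaling. *Axin2*, a Wnt target that feeds back on the pathway, had 1.04 and 0.27 at E8.5, 1.70-fold lower on the knockout-labelled array, and 0.53 and 0.44 at E10.5. Its other probe did not follow, with −2.72 and −2.61 at E8.5. *Dkk1*, a secreted Wnt inhibitor, had 0.04 and −0.58 at E8.5, 1.54-fold lower, and −1.21 and −1.31 at E10.5. The small differences of both genes at E10.5 were positive under the spike-in scaling.

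Of 9 regulators of neuromesodermal and axial progenitors, 1 was called lower at E8.5 and 0 at E10.5, with medians of −0.02 and 0.22. Under the spike-in scaling these medians were −0.57 and 0.38. Of 10 Notch and clock genes of the presomitic mesoderm, 2 were called lower and 1 higher at E8.5, and 0 of 8 measured at E10.5, with medians of 0.01 and −0.15. The median at E8.5 was negative under quantile normalization, the deposited table, the spike-in scaling and no scaling, and that at E10.5 was positive under the spike-in scaling.

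The 3 called genes of that list act at the front of the presomitic mesoderm. *Mesp2*, which sets the segment border, had −2.83 and −4.33 at E8.5, 2.83-fold lower on the knockout-labelled array, and *Ripply1*, which ends the action of Tbx6, had −3.56 and −4.28, 1.65-fold lower. *Ripply2*, its relative, went the other way, with −0.22 and 0.42 at E8.5, 1.56-fold higher. The call of *Ripply2* was lost with the spike-in scaling and without scaling, which shift every E8.5 ratio by −0.55 and −0.26. On the knockout-labelled E8.5 array *Mesp2* and *Ripply1* lay close to −4.53, the dimmest value there that counted as well above background. *Mesp2* and *Ripply1* were not well above background at E10.5, where *Ripply2* had −1.89 and −1.78.

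Hox genes of groups 11 to 13, the last to be switched on as the axis extends, were mostly below background at E8.5, where 2 of 9 were measured. At E10.5, 6 of 8 compared, 1 of them by a bound, were called lower on the knockout-labelled array, beside 4.01% of all genes. Their median log2 ratio of −0.69 stayed negative under every scaling tried, but shrank to −0.53 with spike-in scaling and to −0.39 under normexp, both short of 1.5-fold. *Hoxc13* had values of −2.75 and −4.43, 3.22-fold lower, and *Hoxd12* −0.22 and −1.34, 2.18-fold lower. *Hoxa13* had −3.78 and −4.48, 1.62-fold lower, and *Hoxd13* −0.65 and −1.34, 1.61-fold lower. The calls of *Hoxa13*, *Hoxd13* and *Hoxd11* were lost with the spike-in scaling, which shifts every E10.5 ratio by 0.16. *Hoxb13*, which was chosen after its values were seen, had −1.38 on the WT array and was not well above background on the other, at least 10.4-fold lower. At E8.5 *Hoxd13* had −3.98 and −3.40, while *Hoxd12*, *Hoxc13*, *Hoxb13* and *Hoxa13* stayed below background on both arrays. Between the stages, 6 of the 8 Hox genes compared in WT and 5 of the 7 in the knockout-labelled pair entered through E10.5 alone, so that their count gives no direction. The 2 measured on all 4 arrays, *Hoxa11* and *Hoxd13*, were higher at E10.5 by log2 ratios of 3.69 and 3.33 in WT and of 3.42 and 2.06 in the knockout-labelled pair. Genes such as *Hoxd13* also act in the limbs, and the part of the limbs in the values of these Hox genes was not tested.

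**Figure D3:**
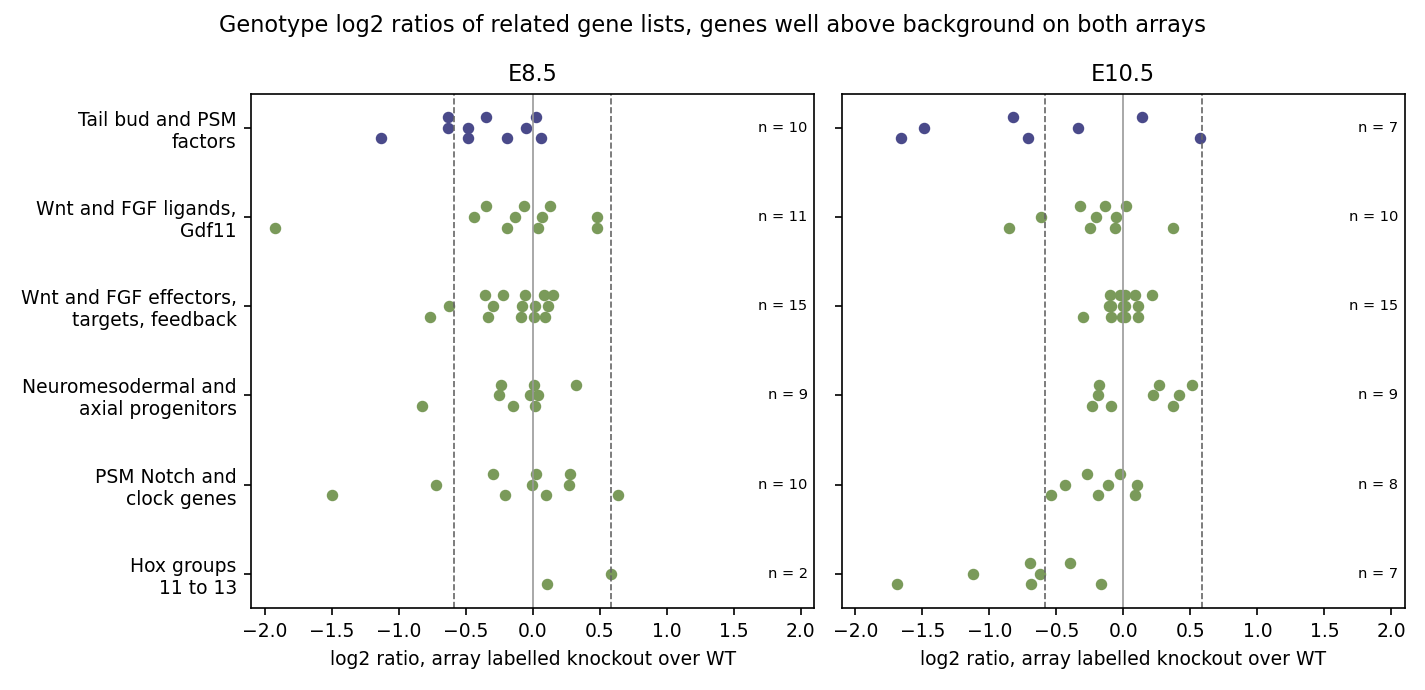
Log2 ratio of the knockout-labelled over the WT array at E8.5 and E10.5 for the 10 tail bud and presomitic mesoderm (PSM) factors and for 5 related gene lists, 1 point per gene well above background on both arrays, with dashed lines at 1.5-fold. The tail bud factors reached −1.66 and the Hox genes −1.69 at E10.5, where no gene of the effector, progenitor or Notch lists passed 1.5-fold at this scaling, and the spike-in scaling moves all points by −0.55 at E8.5 and by 0.16 at E10.5.

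The 7 tail bud genes measured on all 4 arrays had a mean profile, centred on each gene's own mean, of 2.24 on the WT and 1.81 on the knockout-labelled array at E8.5, then −1.72 and −2.34 at E10.5. *Evx1* lay closest to it, at a Euclidean distance of 0.23 log2 units over the 4 arrays, and *Greb1* farthest, at 2.84. Over 14579 genes measured on all 4 arrays, the 5 nearest other genes were *Apob* (0.30), *Vil1* (0.33), *Zscan10* (0.35), *Apoa1* (0.39) and *Ifitm1* (0.43). *Apob*, also on the yolk sac list, and *Apoa1* encode apolipoproteins, *Vil1* a protein of microvilli, *Zscan10* a zinc finger factor of pluripotent cells and *Ifitm1* a membrane protein of early mesoderm. The centred values of *Apob* were 2.47 and 1.83 at E8.5, then −1.90 and −2.40 at E10.5.

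The sequences just before the start of these genes were searched for short motifs of the factors named above. RefSeq promoters of GRCm38.p6 were searched for 9 of the 10 genes, with *Cdx1* left out. The 250 bases before each start were read on both strands for CTTTGA or CTTTGT (TCF/LEF, the factors that carry Wnt signals to DNA), TTTATG (CDX) and TCACAC (T-box). A TCF/LEF motif was found for 3 of the 9 genes, 4 times for *Sp5*, 3 times for *Msgn1* and 1 time for *T*, where 27.6% of 32851 promoters of the same length held at least 1, 0.776% at least 3 and 0.0944% at least 4. The CDX motif was found for *Msgn1* and *T* (10.8% of all promoters) and the T-box motif for *Evx1* (12.3%). A match describes the letters and is not a binding site. The 3 promoters with a TCF/LEF motif are shown because they hold most of the matches, at chr2:70474673-70474922 (plus strand, *Sp5*), chr12:11208949-11209198 (minus strand, *Msgn1*) and chr17:8434173-8434422 (plus strand, *T*). Capitals mark TCF/LEF and CDX motifs on either strand, none of which overlapped.
Sp5: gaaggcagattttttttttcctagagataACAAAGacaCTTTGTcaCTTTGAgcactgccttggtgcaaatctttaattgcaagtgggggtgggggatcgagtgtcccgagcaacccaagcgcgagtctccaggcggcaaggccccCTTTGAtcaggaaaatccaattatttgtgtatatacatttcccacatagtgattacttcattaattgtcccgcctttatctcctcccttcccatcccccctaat
Msgn1: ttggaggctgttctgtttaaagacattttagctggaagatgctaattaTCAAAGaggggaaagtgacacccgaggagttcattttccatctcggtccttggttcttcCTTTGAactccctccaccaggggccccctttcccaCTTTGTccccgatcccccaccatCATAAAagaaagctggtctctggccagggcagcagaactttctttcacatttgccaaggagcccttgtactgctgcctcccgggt
T: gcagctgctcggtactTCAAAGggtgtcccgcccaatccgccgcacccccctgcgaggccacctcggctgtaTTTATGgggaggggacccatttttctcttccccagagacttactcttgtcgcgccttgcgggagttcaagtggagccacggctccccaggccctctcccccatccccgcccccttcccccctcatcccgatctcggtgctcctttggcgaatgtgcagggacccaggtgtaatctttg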

How the data were processed

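The authors deposited the scanner output of 4 arrays, with background-subtracted linear intensity per spot that is not scaled between arrays, and a table of linear intensity whose 4 columns had 1 common distribution and differed from quantile-normalized scanner values by a median of 0.01 (log2). The file headers name Feature Extraction 10.7.1.1, and the submitters' processing notes name Agilent Feature Extraction 9.5.1.1. The column medians of the table were each 4.79 on the log2 scale.

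The log2 processed intensities of a probe's spots were averaged after outlier spots were dropped, then reduced by the array's 75th percentile. A probe counted as well above background where the scanner software marked it so at no fewer spots than it left unmarked. Of the probes, 1 without a value was dropped, leaving 56604. Probes were named through unversioned RefSeq accessions (GRCm38.p6 table, 32993 probes matched), otherwise by the file's name, and only genes in that table were counted. The probe with the highest mean over the 4 arrays represents a gene. A gene entered a comparison if either array of the pair had that probe well above background. The genotype with the embryonic day as block was fitted in limma 3.58.1 (lmFit and trended eBayes, 1 residual degree of freedom, Benjamini-Hochberg) to probes marked so on 2 or more arrays. No replicate could be left out, since this would leave 0 residual degrees of freedom. The steps were tested on simulated data. Other software was R 4.3.3 and, for Python 3.11.15, matplotlib 3.10.9, pandas 2.3.3 and numpy 2.4.6.

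Alternatives were quantile normalization, spike-in scaling (by 7 of 10 control probes), no scaling, normexp with an offset of 50, the deposited table, other filters, the mean over the probes of a gene, a 2-fold threshold, the 1.5-fold threshold joined with an absolute Z-score above 2, and limma without the trend. The genes named are the 10 tail bud genes, *Dyrk2*, *Xist* and Y-linked genes, up to 4 genes of each list with the largest change between genotypes, and the 5 nearest profiles; some genes of the lists are not reported here. The genes, lists and rules were chosen with earlier results of these data known. *Hoxa11* and, of the marker lists, *Hnf4a*, *Foxa1*, *Foxa2*, *Foxj1*, *Shh*, *Noto*, *Nog*, *Lhx1*, *Gsc*, *Meox2*, *Neurog2* and *Olig2* were picked after their values were seen.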

Additional observations from a re-analysis of the deposited data

Results flagged for a closer look

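*Cdx1* had log2 ratios of opposite sign at the stages. At E8.5 that of the knockout-labelled over the WT array was −1.13, and at E10.5 it was 0.57, short of 1.5-fold and so not called. Both lay beyond the spread between spots, which does not cover embryos, and kept their sign under the 5 alternatives that change its values. With 1 array per group the difference between the stages was not tested.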

How the results depend on the processing

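Of the counts and medians of the tail bud genes, those named here changed and the others stayed within 1.5 times the main count or within the spread between spots. The count called between genotypes at E8.5, 3 of 10 (5.43% of all genes were called lower), became 8 under the spike-in scaling (48.7%), 6 without scaling (14.1%), 2 with quantile normalization (5.57%), the deposited table (5.55%) or normexp (1.46%), and 1 with a 2-fold threshold (2.07%) or a Z-score beside the 1.5-fold threshold (2.12%). That at E10.5, 4 of 7 (4.01%), kept only 3 of its genes with spike-in scaling (2.38%), which also called *Cdx1* higher, and 3 under normexp (0.72%), and became 6 of 10 without a filter on dim probes (6.52%), genes too dim for a ratio among them, 2 with a 2-fold threshold (1.25%) and 2 with the Z-score (1.69%). The count limma called over both stages, 0, became 7 without scaling (729 of 32289 probes), where all ratios shift lower. It became 4 without a filter on dim probes (564 of 56604 probes). The spike-in scaling, quantile normalization, normexp, the deposited table, a filter on all 4 arrays and limma without the trend left it at 0.

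The median log2 ratio at E8.5, −0.42, became −0.96 under the spike-in scaling and −0.67 without scaling. That at E10.5, −0.71, became −0.55 under the spike-in scaling, −0.84 without scaling and −0.42 under normexp. The median between stages in WT, −4.54, became −4.35 without scaling, −3.24 under normexp and −3.87 over the 7 genes measured on both arrays, and that in the knockout-labelled pair, −4.89, became −4.25 under the spike-in scaling and −4.58, −3.59 and −4.49 under the same 3. Scaling shifts every gene by the same amount, normexp adds an offset that shrinks ratios of dim probes, and the filter removes 3 genes. For the other changes the cause was not tested. All medians stayed negative.

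Under the 5 alternatives that change the values, 35 of 35 ratios of single genes at E10.5 kept their sign, and 46 of 50 at E8.5. The exceptions were *Tbx6* and *Greb1* under the spike-in scaling and without scaling. The filters leave a gene's ratio as it is, and the mean over probes changed the sign of *Greb1* (−0.07) at E8.5. *Cdx4*, *Msgn1* and *Nkx1-2* were too dim at E10.5 for a ratio between genotypes.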
